A study of Mus musculus and Homo sapiens with 4 samples.

Results

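The genes described here are 6 enzymes and cofactors of DNA cytosine methylation in mouse embryonic stem cells (ES cells): Dnmt1, Dnmt3a, Dnmt3b, Dnmt3l, Tet1 and Tet2. They were chosen by name, as 1 Ensembl transcript per gene, and all 6 were found among the 93380 mouse transcripts counted, 43857 of which have a coding region. The transcripts are ENSMUST00000004202 (Dnmt1), ENSMUST00000020991 (Dnmt3a), ENSMUST00000109774 (Dnmt3b), ENSMUST00000000746 (Dnmt3l), ENSMUST00000050826 (Tet1) and ENSMUST00000098603 (Tet2). The count files list identifiers without gene names, and the pairing of these 6 with their symbols came with the selection.

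The study sequenced ribosome footprints, the short pieces of RNA that ribosomes shield from nuclease. The mouse libraries used here came from E14, an ES cell line of 129/Ola background, grown feeder-free in LIF, which keeps such cells undifferentiated. In the emetine library, cells had been exposed to emetine for 60 s, at a dose the labels do not state. In the cycloheximide library, the exposure was also 60 s, at 100 µg/ml of the drug. Both drugs arrest elongating ribosomes. Each drug had 1 library, so there is no test of the drugs, and every interval below is a 95% interval that covers counting error only. The labels do not tell whether both came from a single culture. The count scale was set so that the median coding region, of 28604 that reach 100 reads in sum, had an emetine over cycloheximide log2 ratio of about 0. The cycloheximide library was 1.76-fold deeper by that measure. The labelled cell type could not be checked against marker genes, because no marker transcript could be paired with a gene name here.

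DNA methylation at cytosines followed by guanine is copied to the new strand after replication by Dnmt1, the maintenance methyltransferase. Dnmt3a and Dnmt3b place new methyl groups on unmethylated DNA, and Dnmt3l, a relative without catalytic activity, binds and stimulates them. Tet1 and Tet2 are iron-dependent dioxygenases that oxidise methylcytosine and so open a route to its removal. ES cells are known to hold all of these proteins, and can also survive without the methyltransferases.

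By RefSeq's annotation of GRCm38.p6, the assembly that mm10 also represents, Dnmt1 lies on chromosome 9 from 20907206 to 20959888, Dnmt3a on chromosome 12 from 3801559 to 3914443, and Dnmt3b on chromosome 2 from 153649411 to 153687730. Dnmt3l lies on chromosome 10 from 78042287 to 78063622, Tet1 on chromosome 10 from 62804570 to 62887469, and Tet2 on chromosome 3 from 133463677 to 133545136. Some reads could be shared with other genes. The span of Dnmt3l overlaps Aire, that of Dnmt3a overlaps the lncRNAs Dnmt3aos and Gm31623, that of Tet1 overlaps the lncRNA Gm51805, and that of Dnmt1 holds the microRNA Mir7081. Loci with pseudogene symbols exist for Dnmt3a (Dnmt3a-ps1, chromosome 3) and Dnmt3l (Dnmt3l-ps1, chromosome 2). For Dnmt3b there is Dnmt3b-ps1, also called Dnmt3c, just downstream on chromosome 2 from 153706484 to 153730013. They were found by symbol alone, and whether any of them codes for a protein was not checked. The sources used here do not say how reads with several matches were counted, and whether such reads enter these counts was not tested.

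Each of the 6 coding regions carried at least 2185 footprints in either library. Of 43857 coding regions, that of Dnmt1 had 12536 reads with emetine (rank 1021) and 27755 with cycloheximide (rank 963). Dnmt3b had 12662 coding reads with emetine (rank 1007) and 26723 with cycloheximide (rank 1018). The maintenance enzyme and this de novo enzyme were thus both within the top 2.33% of coding regions by read number in either library.

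Dnmt3l, the catalytically inactive partner, had 4594 coding reads with emetine (rank 3450) and 11541 with cycloheximide (rank 2590). Dnmt3a, the other de novo methyltransferase, had 2722 coding reads with emetine (rank 6010) and 5134 with cycloheximide (rank 5792). For Dnmt3a and Dnmt3b the ranks were close between the drugs, whereas Dnmt3l stood higher in the list with cycloheximide.

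The dioxygenases had the fewest reads with cycloheximide. Tet1 had 3054 coding reads with emetine (rank 5376) and 4021 with cycloheximide (rank 7133). Tet2 had 2185 coding reads with emetine (rank 7431) and 4086 with cycloheximide (rank 7055). All 6 genes had rank 7431 or better in both libraries. These are read numbers and not levels per length: coding lengths are not given in the files, and a longer coding region collects more reads at the same ribosome density.

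By read number the order with emetine was Dnmt3b, Dnmt1, Dnmt3l, Tet1, Dnmt3a and Tet2, and the exact Poisson intervals of neighbours overlapped for Dnmt3b and Dnmt1 alone. With cycloheximide the order was Dnmt1, Dnmt3b, Dnmt3l, Dnmt3a, Tet2 and Tet1, and those of Tet2 and Tet1 alone overlapped. Tet1 thus stood in the fourth place with emetine and in the last with cycloheximide. In CPM (coding reads per 1000000 coding reads of the library), Tet1 had 38.8 (37.4 to 40.2) with emetine and 24.7 (23.9 to 25.4) with cycloheximide. Tet2 had 27.8 (26.6 to 29.0) with emetine and 25.1 (24.3 to 25.8) with cycloheximide. Together the 6 coding regions took 479.7 CPM with emetine and 485.9 CPM with cycloheximide, so their joint share of coding reads was nearly the same in the pair. CPM scales to total coding counts. On that scaling each log2 ratio of emetine over cycloheximide is 0.24 higher than on the median scaling used below.

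**Figure D1:**
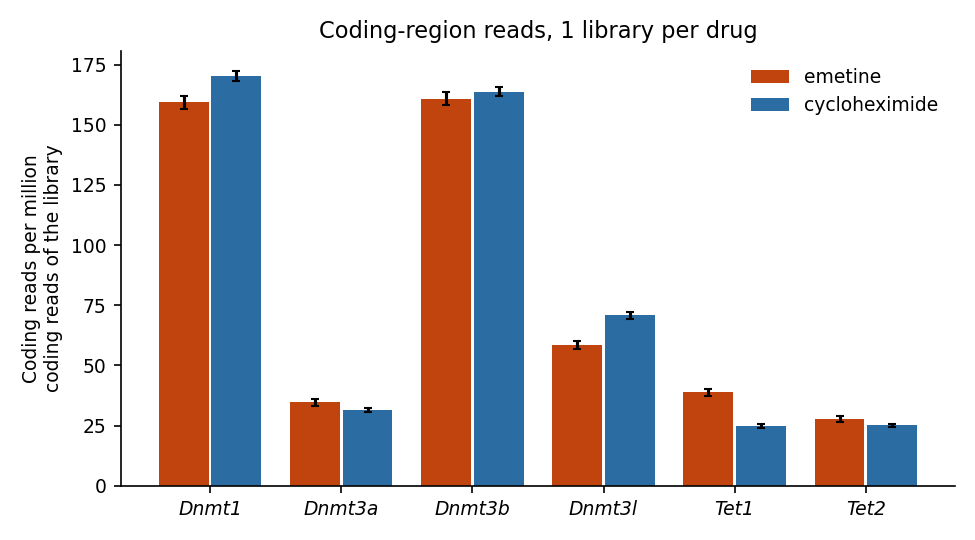
Coding reads of each gene in CPM (vertical axis), with emetine (orange, left bar) and cycloheximide (blue, right bar); error bars are exact 95% Poisson intervals for counting error, with 1 library per drug. Tet1 has 38.8 CPM with emetine and 24.7 with cycloheximide, whereas Dnmt3l has 58.4 with emetine and 70.8 with cycloheximide; heights of different genes are not corrected for length.

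The comparison of the drugs asks whether footprints move when ribosomes are stopped by a different inhibitor. Tet1 and Dnmt3l lay at opposite ends of the 6 genes, and the others lay between them. The Tet1 coding region was 1.33-fold higher with emetine relative to the median coding region (counting interval 1.27 to 1.40), a log2 ratio of 0.42. The Dnmt3l coding region was 1.43-fold lower with emetine (1.38 to 1.48), a log2 ratio of -0.52. Set against each other, the emetine over cycloheximide ratio of Tet1 was 1.91 times that of Dnmt3l (0.93 on the log2 scale, interval 0.85 to 1.02). That comparison does not depend on how the libraries are scaled. It sets the highest of the 6 genes against the lowest, which the interval does not allow for. Among all 28604 coding regions the quartiles of the log2 ratio were -0.27 and 0.28. Tet1 lay above 84.3% of these regions and Dnmt3l above 10.1%.

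Dnmt1 was 1.26-fold lower with emetine (1.23 to 1.29) and Dnmt3b 1.20-fold lower (1.18 to 1.23). Dnmt3a had a log2 ratio of -0.10 (-0.17 to -0.036) and Tet2 one of -0.091 (-0.17 to -0.015). In all, 5 of the 6 genes lay below 0, against 50.1% of all coding regions, and the median log2 ratio of the 6 was -0.18 against 0.00 over all 28604. The sign depends on the scaling for part of them: scaled to total coding counts, every ratio was 0.24 higher on the log2 scale, and Dnmt3a (0.14) and Tet2 (0.15) were then above 0, while Dnmt1 (-0.095), Dnmt3b (-0.026) and Dnmt3l (-0.28) stayed below it. None of the 6 was 2-fold different in either direction, against 2.65% of coding regions. At the median scaling none reached 1.5-fold, against 15.6% of coding regions. Scaled to total coding counts Tet1 did, at a log2 ratio of 0.65 in place of 0.42. The share of all coding regions past 1.5-fold at that scaling was not computed.

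Coding regions with many reads had lower ratios: those with read numbers like Dnmt1 had a median log2 ratio of -0.26, and those with read numbers like Tet2 one of -0.016. Each gene was therefore also placed among the coding regions with between 0.5 and 2 times its summed reads. Dnmt3b lay near the middle of 1887 such regions, above 47.6% of them, and Dnmt1 above 39.4% of 1863. Dnmt3a was above 41.6% of 7175 and Tet2 above 41.3% of 7938. Tet1 was above 91.2% of 7607 coding regions of similar read number, whose median log2 ratio was -0.025. Dnmt3l was above only 9.46% of 4367, whose median was -0.11. Beside regions of similar read number, Tet1 and Dnmt3l were therefore near opposite ends, and the other 4 genes were in the middle.

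**Figure D2:**
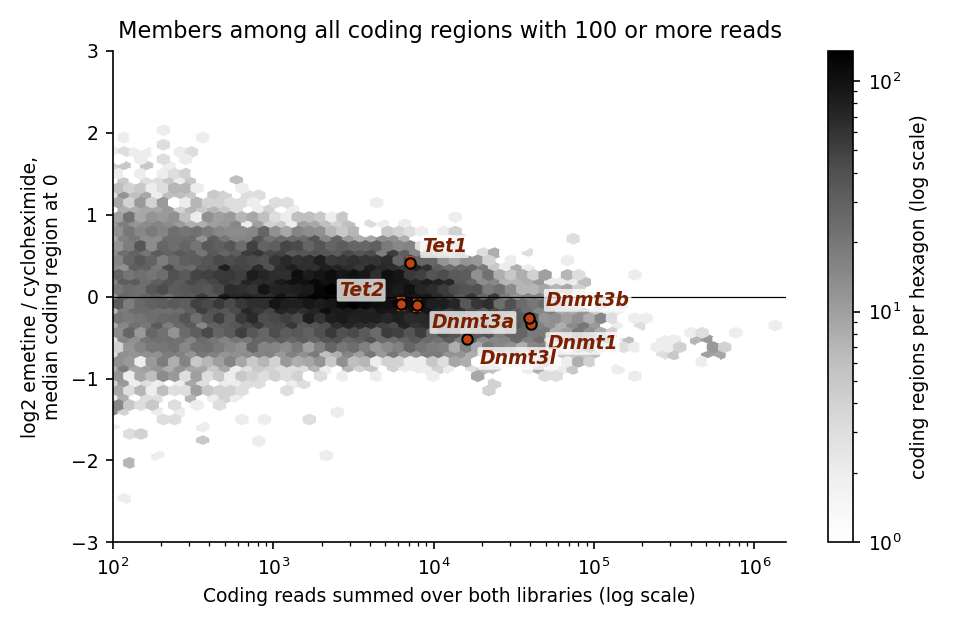
Log2 ratio of emetine over cycloheximide (vertical axis, median coding region at 0) against coding reads summed over both libraries (horizontal axis, log scale); grey hexagons count all 28604 coding regions with at least 100 reads, and orange points are the 6 genes with 95% counting intervals, mostly smaller than the point. Tet1 lies at 0.42 and Dnmt3l at -0.52, and Dnmt1 and Dnmt3b follow the lower ratios of coding regions with many reads.

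Within families the ratios differed as well. The 2 dioxygenases differed 1.42-fold in emetine over cycloheximide ratio, Tet1 above Tet2 (1.32 to 1.52). The 2 de novo enzymes differed 1.12-fold, Dnmt3a above Dnmt3b (1.06 to 1.18), and Dnmt3b was 1.19-fold above Dnmt3l (1.14 to 1.24). None of the pair ratios is corrected for the lower ratios of coding regions with many reads. Measured from the median of regions of similar read number, Dnmt3a lay at -0.067 and Dnmt3b at -0.012 on the log2 scale. The order of these 2 genes was then reversed. Of the 15 pairs of genes, 14 had a counting interval that excluded equal ratios. The exception was Tet2 over Dnmt3a, at 1.01 (0.94 to 1.08). The same share over pairs of other coding regions was not computed, so 14 of 15 cannot be called particular to these genes. The pair intervals hold no variation between cultures. With this many reads they are narrow, so they compare the 2 libraries and not the drugs.

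A 5' leader is the stretch of a transcript before its start codon, and footprints there come from ribosomes upstream of the main reading frame. Leader reads were counted for 5 of the 6 genes, and no leader is listed for the Tet1 transcript. Dnmt3l had 545 leader reads with emetine, or 11.9 per 100 coding reads (10.8 to 13.0), and 880 with cycloheximide, or 7.62 per 100 (7.11 to 8.17). Dnmt3b had 895 leader reads with emetine, or 7.07 per 100 coding reads (6.60 to 7.56), and 1209 with cycloheximide, or 4.52 per 100 (4.27 to 4.79). For both genes the intervals of the 2 libraries did not overlap.

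Both of these leaders were 1.56-fold higher per coding read with emetine, with exact intervals of 1.39 to 1.74 for Dnmt3l and 1.43 to 1.71 for Dnmt3b. Leaders were higher with emetine per coding read in 70.9% of the 10499 transcripts with at least 100 summed reads in both parts, by a median of 1.32-fold. Among these transcripts the Dnmt3b change was above 63.9% and the Dnmt3l change above 63.5%. None of the 5 leaders differed 2-fold per coding read, as 22.6% of the 10499 did. Per coding read the leader change of the 2 genes was thus nearly equal. Their coding regions were themselves lower with emetine at the median scaling, 1.43-fold for Dnmt3l and 1.20-fold for Dnmt3b. Those coding reads are the divisor here, so the lower coding reads enter both leader values.

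Tet2 had 76 leader reads with emetine (3.48 per 100 coding reads) and 120 with cycloheximide (2.94 per 100), a ratio of 1.18 (0.87 to 1.60). Dnmt3a had 80 leader reads with emetine (2.94 per 100 coding reads) and 126 with cycloheximide (2.45 per 100), a ratio of 1.20 (0.89 to 1.60). Dnmt1 had 25 leader reads with emetine (0.20 per 100 coding reads) and 44 with cycloheximide (0.16 per 100), a ratio of 1.26 (0.74 to 2.10). All 5 ratios were above 1, 4 of them in transcripts that reach 100 leader reads, and Dnmt1 did not reach that number. For Tet2, Dnmt3a and Dnmt1 the interval includes 1, so at this depth a difference between the libraries was not detectable.

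The leader signal itself spanned a wide range among the genes. With emetine the Dnmt3l leader held more reads per coding read than 74.4% of 24968 transcripts, and the Dnmt3b leader more than 65.0%. Tet2 and Dnmt3a lay near the middle, above 53.0% and 50.3%, and Dnmt1 was above 28.8%. With cycloheximide the order was the same, from 71.5% for Dnmt3l to 24.1% for Dnmt1. Leader lengths are not given in the files, so these are reads per coding read and not densities.

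For 3 of the genes other transcripts list exactly the same coding counts in both libraries, as 29.0% of the 28604 coding regions do. There was 1 such transcript for Dnmt3a, 1 for Dnmt3b and 2 for Dnmt3l, and each also repeats the trailer counts. Their leader counts differ from that of the gene's own transcript in both libraries for Dnmt3b and Dnmt3l, and in the cycloheximide library alone for Dnmt3a (80 with emetine in both transcripts, 123 against 126 with cycloheximide). The transcript that shares the Dnmt3b coding counts had 744 leader reads with emetine and 1088 with cycloheximide, a per-coding-read ratio of 1.44 (1.31 to 1.59). Its leader thus had 151 fewer reads with emetine than that of the Dnmt3b transcript described above, and 121 fewer with cycloheximide. The transcripts that share the Dnmt3l coding counts gave 1.53 (1.36 to 1.73) and 1.56 (1.38 to 1.76), and the one for Dnmt3a 1.23 (0.91 to 1.65). Leader reads per coding read were therefore higher with emetine for Dnmt3b, for Dnmt3l and for the transcripts that share their coding counts. Whether those transcripts belong to the same genes was not checked, because they could not be paired with a gene name. They share the same coding counts, so they are not independent of the transcripts described above.

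Few footprints lay in the 3' trailers, the stretches after the stop codon, which translating ribosomes normally do not enter. Dnmt3b had 48 trailer reads with emetine, or 0.38 per 100 coding reads (0.28 to 0.50), and 13 with cycloheximide, or 0.049 per 100 (0.026 to 0.083). Dnmt3l had 23 trailer reads with emetine, or 0.50 per 100 coding reads (0.32 to 0.75), and 15 with cycloheximide, or 0.13 per 100 (0.073 to 0.21). Per coding read this was 7.79-fold higher with emetine for Dnmt3b (4.15 to 15.7) and 3.85-fold higher for Dnmt3l (1.92 to 7.95). So 2 of 6 trailers were higher with emetine by 2-fold or more, a size seen in 22.2% of the 5467 transcripts with at least 100 summed reads in both parts, a number that neither of these trailers reached.

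Tet1 went the other way and had the most trailer reads of the 6 genes. It had 51 trailer reads with emetine, or 1.67 per 100 coding reads (1.24 to 2.20), and 112 with cycloheximide, or 2.79 per 100 (2.29 to 3.36). This was 1.67-fold lower with emetine (1.18 to 2.38). It was the only one of the 6 to reach 100 summed trailer reads, and its change lay above just 6.97% of the 5467 transcripts that did. Its coding region was the highest of the 6 with emetine relative to cycloheximide, 1.33-fold above the median coding region. Those coding reads are the divisor of the trailer value, so the 2 values are not separate results.

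Dnmt1 had 0 trailer reads with emetine and 11 with cycloheximide. A floor of 3 reads in place of the 0 would be 0.024 per 100 coding reads, against 0.040 (0.020 to 0.071) with cycloheximide. The cycloheximide value was 1.66-fold above that floor. This takes the 11 reads as exact and is not a lower bound of the difference. The exact two-sided interval of the ratio begins at 1.13-fold lower, so the data bound the difference only from there. Dnmt3a had 18 trailer reads with emetine and 32 with cycloheximide, a ratio per coding read of 1.06 (0.56 to 1.95). Tet2 had 9 trailer reads with emetine and 11 with cycloheximide, a ratio of 1.53 (0.56 to 4.07). In all, 4 of 6 trailers were higher with emetine per coding read, against 63.7% of the 5467 transcripts. The 4 higher trailers all had too few reads to be among those 5467, so the 2 shares come from unlike sets. No molecular identifiers are named in the labels, so amplified copies of a footprint count as separate reads and the intervals do not cover them.

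**Figure D3:**
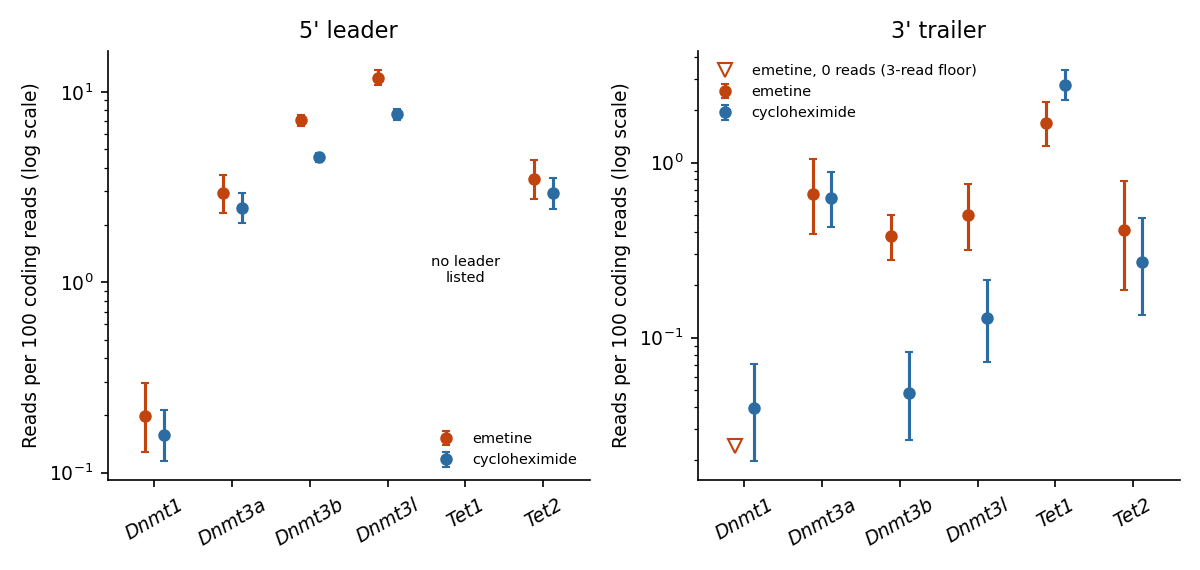
Reads of the 5' leader (left) and 3' trailer (right) per 100 coding reads of the same transcript, on log axes, with emetine (orange) and cycloheximide (blue); bars are exact 95% counting intervals and the open triangle is the limit set by 3 reads where 0 were counted. The emetine points of Dnmt3b and Dnmt3l lie above the cycloheximide points in both panels with no overlap of the intervals, and the Tet1 trailer lies below its cycloheximide point.

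Of the 6 genes, Dnmt3l had the largest share of reads outside the coding region. It was 21.4% of all reads of the transcript with emetine and 15.8% with cycloheximide. For Dnmt3b, the next in order, it was 8.72% with emetine and 5.96% with cycloheximide. Many of the Dnmt3l reads outside the coding region were in none of the 3 parts: 683 reads with emetine, 11.7% of the transcript (10.9 to 12.5), and 1269 reads with cycloheximide, 9.26% (8.78 to 9.76). In the median of transcripts with all 3 parts this share was 5.87% with emetine and 4.78% with cycloheximide. With the reads of all such transcripts pooled it was 10.3% with emetine and 7.66% with cycloheximide, nearer to the Dnmt3l values. The sources used here do not give the bounds of the parts, so the place of the Dnmt3l reads in no part is unknown.

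Reads in no part took 3.35% of the Dnmt1 transcript with emetine and 3.22% with cycloheximide. In the other 4 genes this share ran from 1.30% to 1.98% with emetine and from 0.85% to 1.66% with cycloheximide. Per coding read they were more frequent with emetine in all 6 genes, as in 74.3% of 14600 transcripts with at least 100 such reads, a number that Tet1 and Tet2 did not reach. The ratio was 1.82 for Tet2 (1.10 to 2.99), 1.68 for Dnmt3a (1.15 to 2.45), 1.35 for Dnmt3l (1.22 to 1.49) and 1.19 for Dnmt3b (1.02 to 1.39). For Dnmt1, at 1.04 (0.93 to 1.17), and Tet1, at 1.02 (0.66 to 1.57), the interval includes 1.

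**Figure D4:**
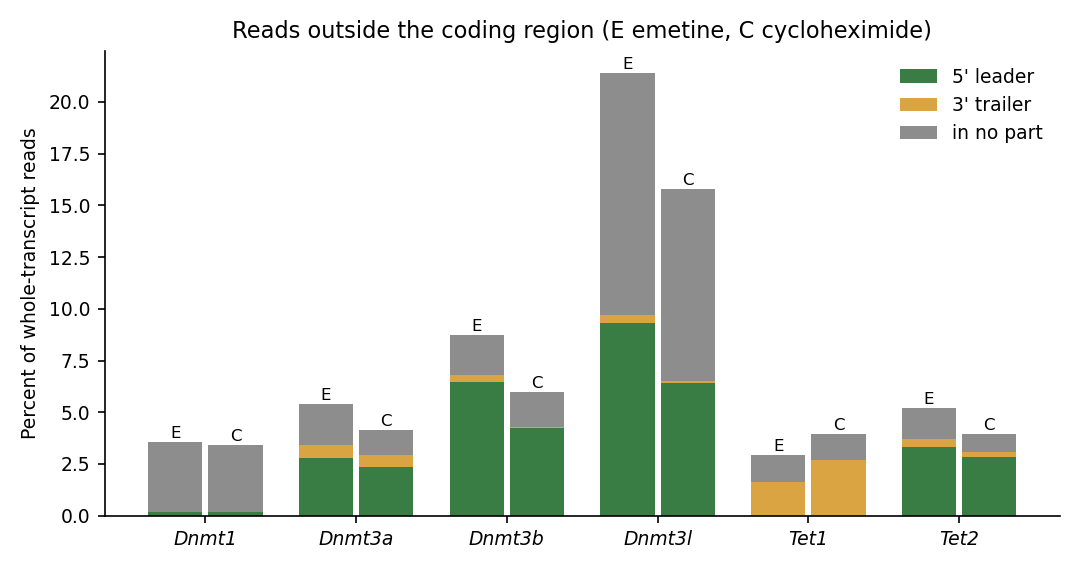
Percent of all reads of each transcript that lay in the 5' leader (green), the 3' trailer (yellow) or none of the parts (grey), with emetine (E, left bar) and cycloheximide (C, right bar). Dnmt3l reaches 21.4% with emetine and 15.8% with cycloheximide, and Tet1, for which no leader is listed, shows trailer reads and reads in no part.

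The genes were last compared over 6 values each, the scaled coding reads and the leader and trailer reads per coding read in both libraries, on a log2 scale with each value divided by its SD over 2302 transcripts. Tet1 could not enter, having no leader. Dnmt3a and Tet2 were each other's nearest gene among the 5, at a distance of 0.43, and Dnmt3b and Dnmt3l were each other's nearest at 0.96. The distances of Dnmt1 are not given, since its trailer count of 0 with emetine makes them depend on the prior. Of 24549 transcripts, 49 were closer to Dnmt3a than Tet2 was, and 72 were closer to Tet2 than Dnmt3a was. For the other pair, 430 were closer to Dnmt3b than Dnmt3l was, and 886 were closer to Dnmt3l than Dnmt3b was. Many other transcripts were thus as near. For Dnmt3a and Dnmt3l the nearest transcript of all was one that repeats their coding counts.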

How the data were processed

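The values are raw read counts per transcript, coding region, 5' leader and 3' trailer, deposited by the authors as 1 table per library, per the file headers. The submitters' processing notes name CASAVA 1.8, Bowtie2 2.0.6, TopHat2 2.0.7 and mm10, without saying what each was used for. The labels' protocols give RNase I digestion, ribosome pelleting, linker ligation, circularization and PCR, and name no molecular identifiers. Coding counts summed to 78702902 with emetine and 163107357 with cycloheximide, and many transcripts repeat the counts of another. A part was used where neither library lists it as missing. Ratios used the median scaling and a prior of 0.5 reads; intervals are exact (Clopper-Pearson, Poisson, conditional odds ratio; scipy 1.17.1) and 95%. The ratio calculation was tested on simulated data. TMM factors came from edgeR 4.0.16. The 6 genes and all lists were chosen with earlier results of these data known, and every one of the 6 is named. Lists of 25 pathway genes and 24 marker genes were not used, because 0 of the transcript identifiers occur in the name tables. The HEK libraries of the series are human and were not used. No protein or transcript sequence was used here.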

Additional observations from a re-analysis of the deposited data

How the results depend on the processing

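Scaled to total coding counts, 3 of the 6 genes had a ratio below 0, in place of 5; by that construction every ratio shifts alike and the order of the genes cannot change. Under TMM scaling, other minimums (30, 500, or 1 read in each library), other priors, whole transcripts and identical rows counted once, the number remained 5. The minimums, the priors and the single count of identical rows could hardly change it. Under them Tet2, the gene nearest 0, had log2 ratios from -0.105 to -0.077. Relative to coding reads or to all reads of the transcript, 5 of 5 leaders and 4 of 6 trailers were higher with emetine. These numbers, and that of genes in the upper 25% of coding regions (6 of 6), were the same under the alternatives run. With identical rows counted once Tet2 with emetine stood at rank 6421 of 25729, in place of 7431 of 43857. That is the top 24.96%, only just inside the upper 25%. Dnmt1 with emetine was then in the top 3.39%, in place of 2.33%. The share of all transcripts with a higher trailer per coding read was 67.6% with a minimum of 30 reads and 51.7% with 500. That for leaders was 68.1% and 78.2%. The leaders of transcripts with the same coding counts were compared after the data had been seen. No paired analysis was possible because each drug has 1 library, and for the same reason no library could be left out. Leaders of Dnmt1 and all trailers but that of Tet1 have under 100 reads, which limits what can be told apart there.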
